A study of Mus musculus with 5 samples.

Results

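The genes described here encode 9 cell surface adhesion proteins of the immunoglobulin superfamily: Mpzl1, Mpzl2 and Mpzl3, F11r, Icam1 and Vcam1, and Pecam1, Alcam and Cadm1. They were taken by symbol from a deposited table of 20583 genes measured in cultured mouse macrophages. All 9 were found, each is represented by its transcript row with the highest mean count, and all 9 passed the filter on low counts. The set was chosen by a rule that used measured values: the difference of Mpzl2 in read counts between the genotypes compared below was known, so its values are given as a description with no test. The other 8 share its superfamily and were selected with earlier results of these data known. The libraries came from macrophages of NICcA mice (replicates 2 and 3) and from macrophages labelled wild type (WT, replicates 1, 2 and 3). All mice had a C57BL/6 background and were 7 to 8 weeks old, and bone marrow cells of both genotypes were cultured with 25 ng/ml of the growth factor M-CSF for 7 days. NICcA is not explained in the labels, and in other work it has named a conditionally expressed intracellular domain of the Notch receptor. The promoter that drives it is not given in the sources used here, nor is any allele the control mice may carry. Whether each library had its own animal or culture is not stated, so every p-value reflects differences among 5 libraries that may be only technical.

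Adhesion molecules of this superfamily carry extracellular immunoglobulin-like domains that bind the same protein on a neighbouring cell or a different receptor, often an integrin. In macrophages they serve firm attachment, passage across endothelium and contact with lymphocytes. Icam1 and Vcam1 are classic inducible members, switched on by inflammatory cytokines through NF-kB. The Mpzl proteins are relatives of myelin protein zero, the adhesion protein that compacts peripheral myelin.

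Total counts over all transcript rows ranged from 64870248 to 68110891 in NICcA and from 57442309 to 76562905 in WT. All 8 macrophage markers on the list were detected in every library. Hes1, a direct Notch target, was at 2.77 and 1.73 CPM in NICcA and at 0.0174, 0.0682 and 0.0911 CPM in WT (CPM are counts per 1000000 counts of the TMM-scaled library). Notch1 was at 84.2 and 87.6 CPM in NICcA and at 78.5, 68.1 and 67.4 CPM in WT. A pair of libraries stood apart within their groups. In NICcA replicate 2, 14 NF-kB and cytokine genes had a median difference of 1.24 from the WT mean on the log2 scale, against 0.04 in NICcA replicate 3. In WT replicate 1 Col3a1, a collagen gene used as a stromal cell marker, was at 7.27 CPM, against at most 0.0299 CPM in every other library.

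The promoter of Icam1 is shown because Icam1 is the most abundant of the 9 genes and, as described below, was highest in the library with the highest cytokine transcripts. Of the 9 genes, 4 matched the RefSeq promoter table for GRCm38.p6: Mpzl1, F11r, Icam1 and Alcam. Each entry covers 250 bases before to 50 bases after the annotated start. The Icam1 promoter is chr9:21015690-21015989 on the plus strand, and capitals mark matches to GGNNNTTCC, a form of the NF-kB recognition sequence, searched on both strands.

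Icam1 promoter: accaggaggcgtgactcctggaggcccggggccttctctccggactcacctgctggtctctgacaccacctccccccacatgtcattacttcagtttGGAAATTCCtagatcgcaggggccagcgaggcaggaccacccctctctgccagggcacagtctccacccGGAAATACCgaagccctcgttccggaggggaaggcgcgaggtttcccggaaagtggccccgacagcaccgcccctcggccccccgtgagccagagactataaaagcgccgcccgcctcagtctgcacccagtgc

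The matches are GGAAATTCC, which reads as a match on both strands, and GGAAATACC on the minus strand. Counting the start as 0, their first bases lie at -153 and -84. This form occurred in 18.5% of the 32851 promoters in the table. Among the other 3 it was found once, in F11r. TGGGAA, the core recognition sequence of Rbpj, the DNA-binding partner of Notch, occurred in 25.6% of all promoters. It was found in those of Mpzl1 (minus strand, first base at -72) and F11r (minus strand, first base at 34). The F11r match overlaps the GGNNNTTCC match there. Both motifs were chosen with the expression values known. A match describes letters in the window and does not show that a factor binds there.

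Between genes, levels were compared as the authors' RPKM (reads per kilobase of transcript and per 1000000 reads). Icam1 was first in both groups, at 62.3 ± 20.7 RPKM in NICcA and 40.8 ± 3.16 RPKM in WT (mean ± SD, n = 2 NICcA and n = 3 WT libraries throughout). Alcam followed at 23.7 ± 2.73 RPKM in NICcA and 26.9 ± 1.93 RPKM in WT, and F11r came next at 15.9 ± 0.923 RPKM in NICcA and 16.7 ± 2.09 RPKM in WT. These 3 genes did not overlap each other in either group, and the other 6 genes lay far below them. Mpzl3 is placed by its shorter transcript row in both groups. In NICcA the next were Mpzl3, Mpzl2, Mpzl1 and Pecam1, whose means fell between 2.29 and 2.83 RPKM and whose neighbours in the order overlapped. Cadm1 and Vcam1 were lowest in NICcA, at 1.63 ± 0.301 and 1.21 ± 0.0076 RPKM. In WT, Cadm1, Mpzl1 and Mpzl3 followed F11r at means of 3.24, 2.38 and 1.88 RPKM, each overlapping its neighbour. Pecam1 and Vcam1 overlapped at 0.793 ± 0.607 and 0.742 ± 0.102 RPKM, and Mpzl2 was last in WT at 0.113 ± 0.0312 RPKM, with no overlap with Vcam1. On its longer row Mpzl3 was at 0.523 and 0.556 RPKM in NICcA, below every other gene there, and at 0.531, 0.393 and 0.38 RPKM in WT, where it overlapped Pecam1, lay below Vcam1 and lay above Mpzl2. In the NICcA libraries Mpzl2, at 2.93 and 1.86 RPKM, overlapped its relative Mpzl1, at 1.97 and 2.75 RPKM.

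**Figure D1:**
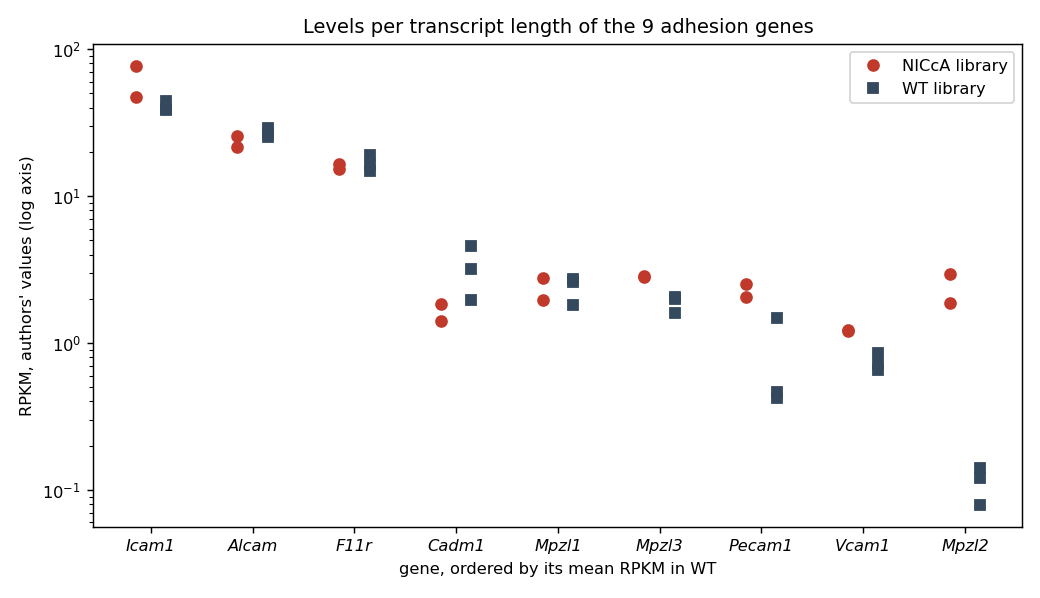
RPKM of each gene on a log axis, 1 circle for each of the 2 NICcA libraries and 1 square for each of the 3 WT libraries, with genes ordered by their WT mean. Icam1, Alcam and F11r lie above 14 RPKM in every library, and Mpzl2 is the lowest gene in WT, at 0.0791 to 0.14 RPKM, but not in NICcA, at 1.86 and 2.93 RPKM.

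Mpzl2 encodes an adhesion protein that binds itself between cells, first described in thymic and other epithelia. Its read counts were 741 and 505 in NICcA replicates 2 and 3 and 32, 24 and 33 in WT replicates 1, 2 and 3. In CPM this was 11.1 and 7.0 in NICcA and 0.555, 0.328 and 0.501 in WT. Both NICcA libraries were far above all 3 WT libraries. The fitted difference was 19.6-fold, a log2 fold change of 4.30 (SE 0.32) and place 18 from the top among 13341 genes tested. These values are those on which the set was chosen.

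Mpzl1 encodes a receptor that recruits the phosphatase Shp2. It was at 5.44 and 7.57 CPM in NICcA and at 7.55, 8.32 and 5.46 CPM in WT. The groups overlapped, with the lowest library in NICcA at almost the same level as the lowest in WT. Its log2 fold change was -0.13 (SE 0.24, edgeR adjusted p = 0.82), and the sign turned without NICcA replicate 2 (0.09).

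Mpzl3, best known in mouse from a mutation that disturbs skin and hair, was at 2.8 and 2.81 CPM in NICcA and at 2.13, 2.16 and 1.75 CPM in WT. Both NICcA libraries were above every WT library. The log2 fold change of 0.48 (SE 0.20, edgeR adjusted p = 0.36) did not pass. The 2 transcript rows of Mpzl3 gave different pictures. The row used here, from a transcript of about 1.04 kb by its count and RPKM, did not overlap between the groups, whereas the longer row (about 4.02 kb) was at 2.0 and 2.12 CPM in NICcA and at 2.13, 1.65 and 1.59 CPM in WT, with WT replicate 1 the highest of the 5 libraries. Its log2 fold change was 0.20 (SE 0.23, edgeR adjusted p = 0.69). The shorter row held 53 and 50 more reads than the longer one in NICcA, and 0, 37 and 10 more in WT.

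Among the junctional and endothelial-type receptors, F11r encodes the junctional adhesion molecule JAM-A, found at tight junctions and on leukocytes and platelets. F11r was at 44.4 and 48.0 CPM in NICcA and at 50.2, 60.7 and 47.4 CPM in WT. The groups overlapped narrowly, through NICcA replicate 3 and WT replicate 3. Its log2 fold change was -0.19 (SE 0.14, edgeR adjusted p = 0.52).

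Icam1 encodes the ligand of the leukocyte integrins LFA-1 and Mac-1. Its level was 229 and 141 CPM in NICcA replicates 2 and 3, against 121, 145 and 128 CPM in WT. In CPM, NICcA replicate 2 alone stood above WT, and NICcA replicate 3 lay within the WT range. In the authors' RPKM both NICcA libraries, at 76.9 and 47.6, were above WT, at 38.7, 44.5 and 39.3. The overlap of Icam1 thus depends on the scaling. The log2 fold change was 0.49 (SE 0.21, edgeR adjusted p = 0.36), and without NICcA replicate 2 it was 0.10. Most of the NF-kB and cytokine genes were also highest in NICcA replicate 2. Ifngr1 was lowest there, at 82.7 CPM against 110 CPM in NICcA replicate 3 and 134, 115 and 143 CPM in WT. Rela had a log2 fold change of 0.00. The interleukin-1 beta gene Il1b had 501 and 76.4 CPM in NICcA and 16.6, 14.3 and 14.8 CPM in WT (edgeR adjusted p = 0.27). Il1a was at 232 and 22.2 CPM in NICcA and at 16.1, 10.6 and 12.0 CPM in WT (edgeR adjusted p = 0.28). Of 14 such genes tested, DESeq2 called 2 higher, Il1b (adjusted p = 0.00054) and Nfkbie (adjusted p = 0.041), but not Il1a (adjusted p = 0.052). Over all tested genes DESeq2 called 3.95%. With edgeR 0 of the 14 passed and 5 had an unadjusted p below 0.05, where 14.5% of all tested genes had. Ifngr1, among those 5, was lower in NICcA. Over the 14 genes the log2 fold changes had a median of 0.71, against 0.00 over all tested genes. This list was chosen with earlier results known, and its part in the level of Icam1 was not tested.

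Vcam1 encodes the ligand of the integrin VLA-4. It was at 4.82 and 4.85 CPM in NICcA and at 2.74, 3.14 and 3.73 CPM in WT. Unlike Icam1, Vcam1 was at nearly the same level in both NICcA libraries. Both were above every WT library. Its log2 fold change was 0.59 (SE 0.19, edgeR adjusted p = 0.32; DESeq2 adjusted p = 0.15).

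**Figure D2:**
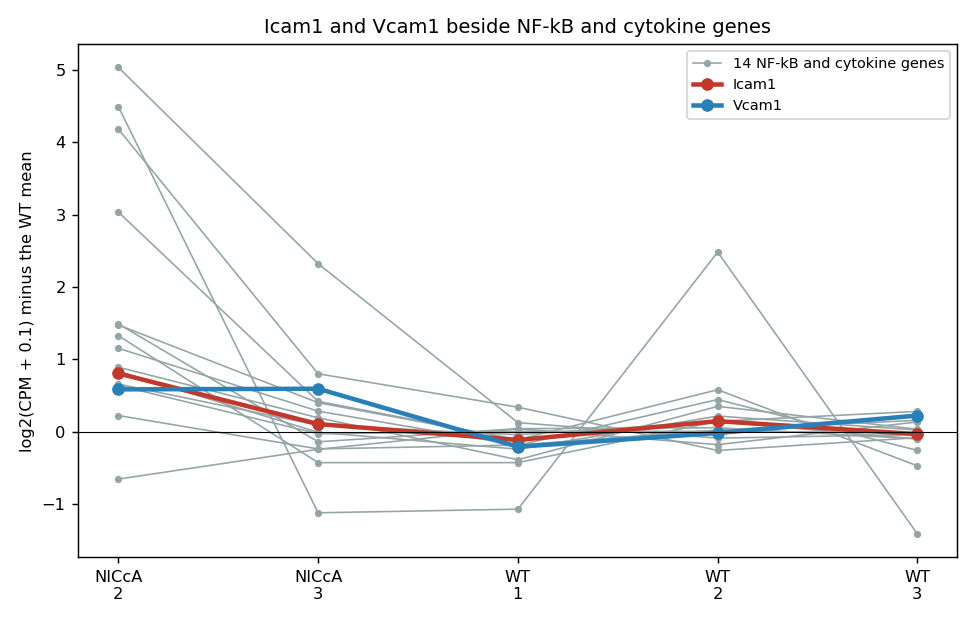
Difference of log2(CPM + 0.1) from the WT mean for Icam1 (red), Vcam1 (blue) and 14 NF-kB and cytokine genes (grey) in the 2 NICcA and 3 WT libraries. Icam1 is at 0.80 in NICcA replicate 2 and 0.11 in NICcA replicate 3, whereas Vcam1 is at 0.58 and 0.59.

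Pecam1 encodes CD31, an adhesion receptor of endothelial cells, platelets and leukocytes. Its levels were 9.77 and 8.0 CPM in NICcA and 6.09, 1.97 and 1.81 CPM in WT. WT replicate 1 stood between the NICcA libraries and the other 2 WT libraries, 3.37-fold above the lowest WT library. The log2 fold change was 1.44 (SE 0.54, edgeR adjusted p = 0.33), and without WT replicate 1 it was 2.24 (edgeR adjusted p = 0.09). Of 8 endothelial markers, 0 were higher in both NICcA libraries than in any WT library, where 18.3% of tested genes were. Of the 5 tested, 2 (Cdh5 and Vwf) were lower in both, where 18.5% of tested genes were. The summed level of the 8 was 164 and 170.3 CPM in NICcA and 171 to 228 CPM in WT, most of it Vwf. Without Vwf it overlapped, at 55.8 and 33.1 CPM in NICcA and 25.1 to 46.4 CPM in WT. The 5 tested markers had a median log2 fold change of 0.44, positive for Kdr (0.61), Erg (1.36) and Tie1 (0.44), whose groups overlapped, and negative for Vwf (-0.41) and Cdh5 (-1.21). Of these 5, 0 passed edgeR or DESeq2. An unadjusted edgeR p below 0.05 was found for 2, Cdh5 and Vwf, where 14.5% of all tested genes had one. Cdh5, the adhesion molecule of endothelial junctions, was at 1.63 and 2.12 CPM in NICcA and at 2.41, 6.73 and 3.87 CPM in WT. Tek, Emcn and Sox17 were at or below 0.139 CPM in all libraries. The platelet marker Itga2b was at 9.12 and 8.11 CPM in NICcA, against 4.39, 3.41 and 2.85 CPM in WT, with no overlap (edgeR adjusted p = 0.27; DESeq2 adjusted p = 0.00019). The other 4 platelet markers overlapped between the groups, with log2 fold changes of 0.48 for Pf4, -0.39 for Gp9, -0.19 for Gp1bb and -0.28 for Ppbp. The median over the 5 was -0.19, and their summed level, mostly Pf4, was 47.4 and 36.8 CPM in NICcA and 19.4 to 38.6 CPM in WT. The part of such cells in the level of Pecam1 was not tested, and in these bulk libraries a change in the number of cells of a type and a change in RNA per cell cannot be told apart.

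Cadm1 encodes a homophilic adhesion molecule of epithelia, mast cells and some dendritic cells. It was at 7.28 and 9.44 CPM in NICcA and at 10.6, 18.0 and 25.7 CPM in WT. Both NICcA libraries were below every WT library, but WT replicate 1 lay nearer to them than to the other WT libraries. The log2 fold change was -1.12 (SE 0.37, edgeR adjusted p = 0.32; DESeq2 adjusted p = 0.067), and -1.38 without WT replicate 1 (edgeR adjusted p = 0.10). The 4 transcript rows of Cadm1 share most of their reads and had log2 fold changes of -1.12 or -1.11.

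Alcam encodes the ligand of the T cell receptor CD6. It was at 127 and 149 CPM in NICcA and at 154, 170.5 and 185 CPM in WT. In CPM the NICcA libraries lay just below the WT range. In the authors' RPKM the groups of Alcam overlapped, at 21.7 and 25.6 in NICcA and 25.1, 26.7 and 28.9 in WT. Its log2 fold change was -0.30 (SE 0.13, edgeR adjusted p = 0.36). Alcam and Cadm1 were the lower 2 of the 6 genes whose groups did not overlap in CPM.

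**Figure D3:**
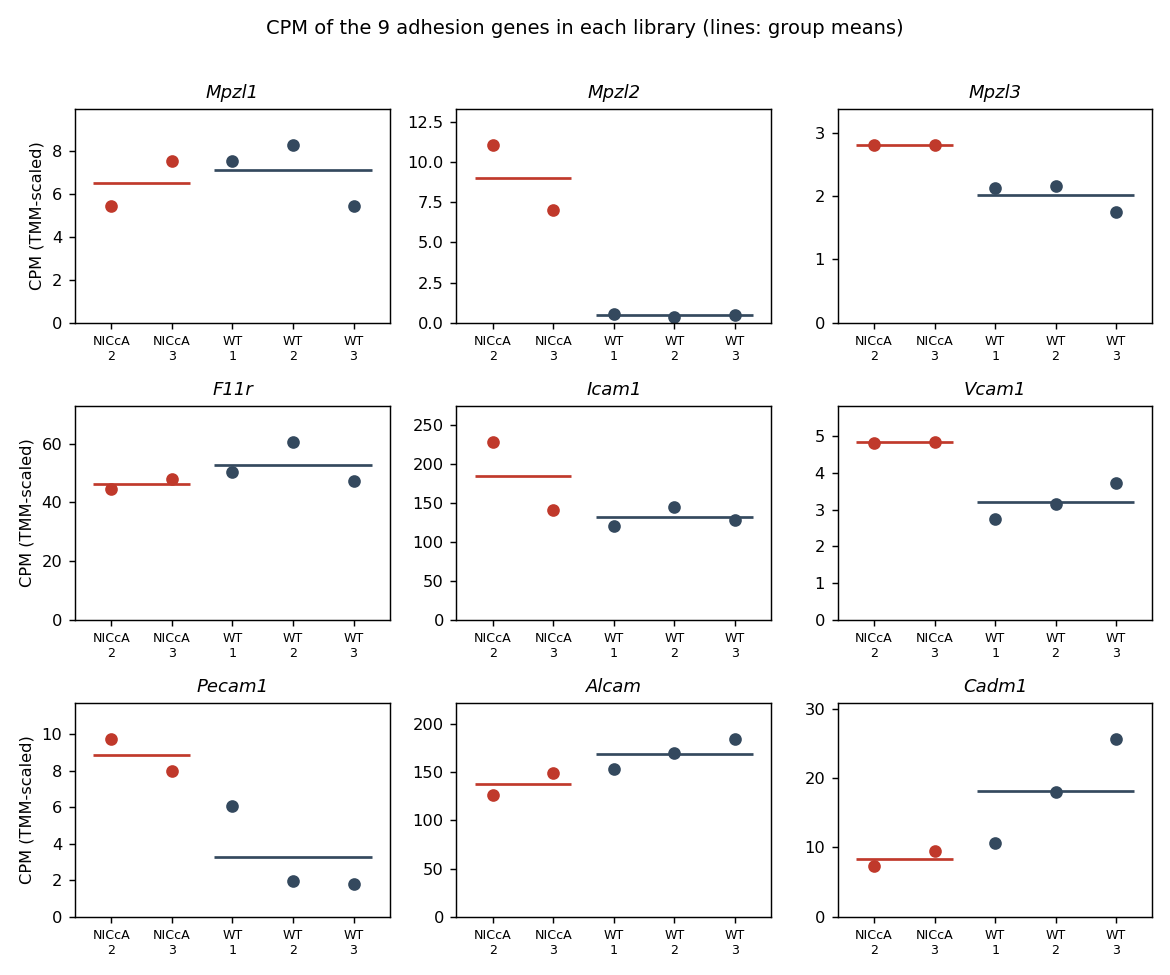
CPM of each gene by library (points), NICcA in red and WT in dark blue, with lines at the group means; each panel starts at 0 and has its own scale. Mpzl2, Mpzl3, Vcam1 and Pecam1 are higher and Alcam and Cadm1 lower in both NICcA libraries than in any WT library, while Mpzl1, F11r and Icam1 overlap.

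Across the set, 4 genes were higher in CPM in both NICcA libraries than in any WT library (Mpzl2, Mpzl3, Vcam1 and Pecam1). Without Mpzl2, whose difference was known when the set was chosen, these were 3 of 8, where 18.3% of the 13341 tested genes were. Alcam and Cadm1 were lower in both, where 18.5% of tested genes were. In RPKM the groups of Alcam overlapped, whereas Icam1 was higher in both NICcA libraries than in any WT library. On the longer transcript row of Mpzl3 the groups overlapped in CPM, so its place among the 3 depends on the row used. Apart from Mpzl2, 0 of the other 8 genes passed edgeR's quasi-likelihood test with Benjamini-Hochberg adjustment over all rows, and 3 (Vcam1, Pecam1 and Cadm1) had an unadjusted p below 0.05. Over all genes edgeR called 4, or 0.03%, and 14.5% had an unadjusted p below 0.05. DESeq2 called 527 genes, or 3.95%, and 0 of the 8. Of the 8, 5 had an unadjusted DESeq2 p below 0.05. The share of all genes below that DESeq2 p was not computed, so this count has no background to be read against. The median log2 fold change of the 9 genes was 0.48 and that of the 8 without Mpzl2 was 0.18, against 0.00 over all tested genes. Mpzl2, Pecam1 and Cadm1 had log2 fold changes outside the range from -0.59 to 1.14 that held the genes between the 5th and 95th percentiles.

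**Figure D4:**
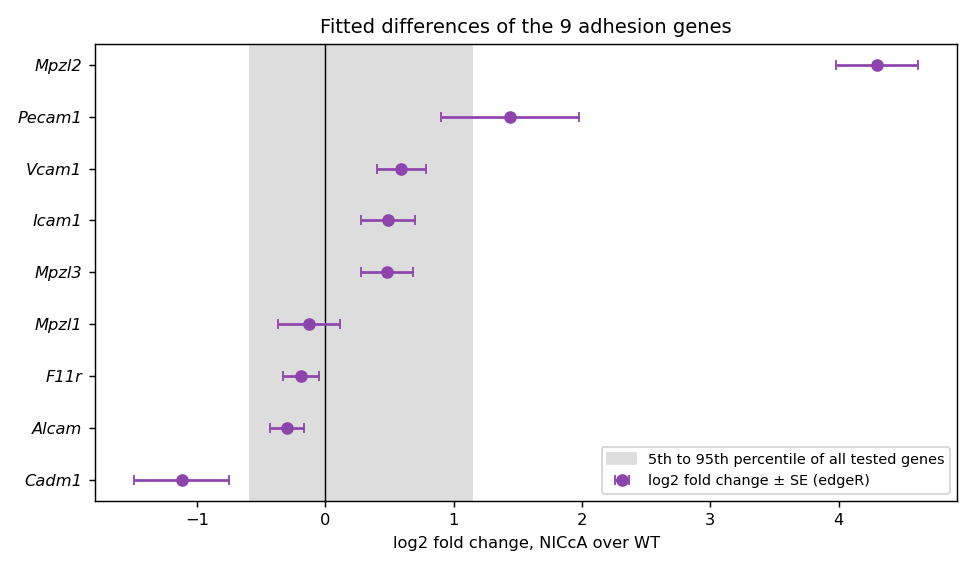
Log2 fold change, NICcA over WT, of each gene with its SE from edgeR's fit (2 NICcA and 3 WT libraries); the grey band is the 5th to 95th percentile of all 13341 tested genes. Mpzl2 at 4.30, Pecam1 at 1.44 and Cadm1 at -1.12 lie outside the band from -0.59 to 1.14.

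Counter-receptors that bind these adhesion molecules included the integrins. Itga9, an integrin chain that binds Vcam1, was at 4.77 and 3.23 CPM in NICcA and at 0.243, 0.0136 and 0.167 CPM in WT. Both NICcA libraries were well above WT, and the log2 fold change of 4.85 (SE 0.74) did not pass edgeR (adjusted p = 0.27) but passed DESeq2 (adjusted p = 2.4e-07). Cd6, the receptor for Alcam, was at 3.74 and 3.19 CPM in NICcA and at 2.15, 1.71 and 0.835 CPM in WT (log2 fold change 1.15, SE 0.39, edgeR adjusted p = 0.32). Itgb2, the shared chain of LFA-1 and Mac-1 and so part of the receptor for Icam1, was at 1311 and 1071 CPM in NICcA and at 1377, 1689 and 1697 CPM in WT (edgeR adjusted p = 0.34). Of 17 counter-receptor genes tested, 0 passed edgeR and 7 had an unadjusted p below 0.05, where 14.5% of all tested genes had. DESeq2 called 1 higher and 0 lower, where it called 3.95% of all tested genes. Without overlap, 3 were higher and 4 lower in NICcA, where 18.3% and 18.5% of tested genes were. The median log2 fold change of the 17 was 0.15. Some genes were named after their values were seen. These were Itgb2 here, Nfkbie, Ifngr1, Rela, Adam10, Adam17, Tjp1, Cdh1, Epcam and the single marker genes other than Itga2b and Ngp.

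Of 27 related adhesion genes of the superfamily, 0 passed edgeR and 3 had an unadjusted p below 0.05, where 14.5% of all tested genes had. DESeq2 called 1 higher and 1 lower, where it called 3.95% of all tested genes. The median log2 fold change of the 27 was 0.10. Bcam, a laminin receptor, was at 4.8 and 3.45 CPM in NICcA and at 7.22, 10.4 and 10.2 CPM in WT (log2 fold change -1.17, SE 0.24, edgeR adjusted p = 0.27; DESeq2 adjusted p = 0.003). Esam, an adhesion molecule of endothelial cells and platelets, was at 1.81 and 0.596 CPM in NICcA and at 0.364, 0.123 and 0.197 CPM in WT (log2 fold change 2.41, SE 0.64, edgeR adjusted p = 0.29; DESeq2 adjusted p = 0.044).

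Inside the cell, the tails of these receptors bind phosphatases, adaptors and junction scaffolds. Of 23 such genes tested, 0 passed edgeR and 5 had an unadjusted p below 0.05, where 14.5% of all tested genes had. DESeq2 called 0 higher and 1 lower, where it called 3.95% of all tested genes. The median log2 fold change of the 23 was 0.11. Gab1, a docking protein for Shp2, was at 12.5 and 17.0 CPM in NICcA and at 20.2, 25.6 and 27.5 CPM in WT (log2 fold change -0.73, SE 0.20, edgeR adjusted p = 0.29; DESeq2 adjusted p = 0.041). Mllt4, which encodes the scaffold afadin at cell junctions, was at 62.1 and 60.6 CPM in NICcA and at 51.2, 47.3 and 44.9 CPM in WT (log2 fold change 0.36, SE 0.10, edgeR adjusted p = 0.29).

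Among 7 genes of proteases able to release adhesion molecules from the cell surface, 1 passed edgeR. This was Mmp9, a gelatinase, at 20.9 and 22.4 CPM in NICcA and 0.833, 0.901 and 1.32 CPM in WT (log2 fold change 4.41, SE 0.23, edgeR adjusted p = 0.0067), a difference already known when the list was made. Of the 7, 2 had an unadjusted edgeR p below 0.05, where 14.5% of all tested genes had. DESeq2 called 1 higher and 0 lower, where it called 3.95% of all tested genes. The median log2 fold change of the 7 was 0.35, and 4 were positive. Adam10 and Adam17 lay on the other side. Adam10 was at 57.8 and 79.4 CPM in NICcA and 106, 83.8 and 97.2 CPM in WT (edgeR adjusted p = 0.33). Adam17 was at 208 and 179 CPM in NICcA and at 209, 268 and 308 CPM in WT (edgeR adjusted p = 0.36).

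For each of the 9 genes, the 3 most similar patterns were sought among 11249 other genes with a mean of at least 1 CPM, by the root mean square difference of centred log2(CPM + 0.1) over the 5 libraries. Similarity of genes with a large shift between the groups mostly reflects that shift. For Mpzl2 they were Il12a, a subunit of interleukin-12 (difference 0.337), Itga9 (0.338) and Mmp9 (0.385). For Pecam1 they were the cation exchanger gene Slc24a3 (0.0571), Gapt (0.0975) and the cell cycle repressor gene E2f7 (0.14). Slc24a3 was at 2.33 and 1.98 CPM in NICcA and at 1.42, 0.409 and 0.334 CPM in WT, with WT replicate 1 again in between. For Cadm1 they were Xylt1 (0.0716), LOC100038947 (0.119), for which no name is given, and Rhob, a small GTPase gene (0.136). Rhob was at 166 and 177 CPM in NICcA and at 217, 336 and 439 CPM in WT. For Icam1 they were Gpd2, a mitochondrial glycerol phosphate dehydrogenase gene (0.0406), Rabl5 (0.0534) and Nfkb1, an NF-kB subunit gene (0.074). Nfkb1 was at 136 and 91.7 CPM in NICcA and 83.7, 94.9 and 80.4 CPM in WT. The nearest to the remaining genes were Ankrd39 for Mpzl1, Grhpr for Mpzl3, the lymphotoxin receptor gene Ltbr for F11r, Frs3 for Vcam1 and the polycystin gene Pkd2 for Alcam.

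**Figure D5:**
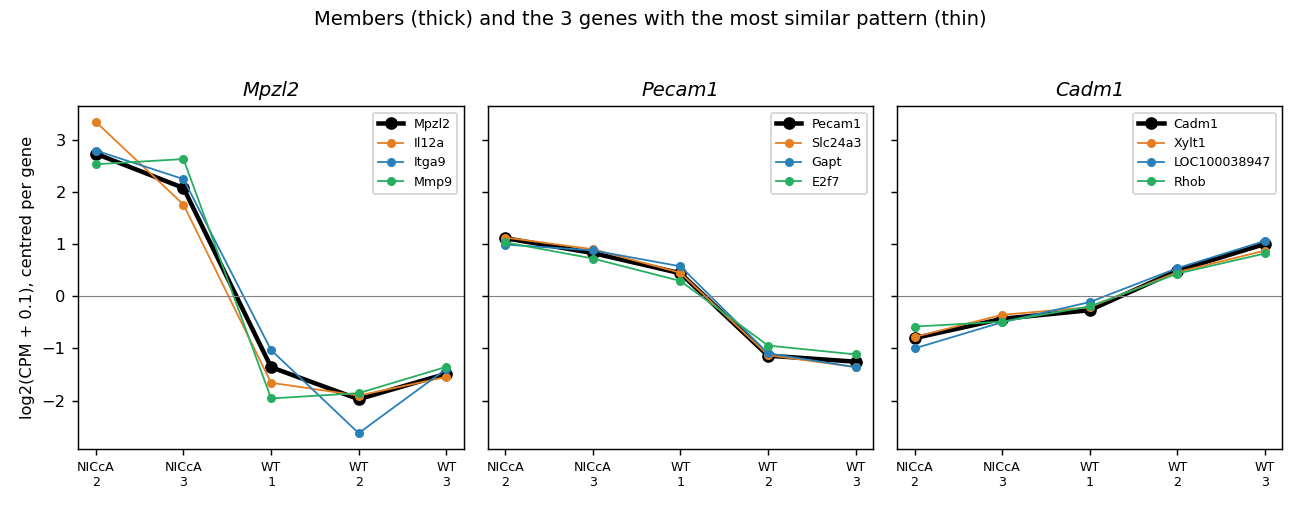
Log2(CPM + 0.1), centred per gene, in the 2 NICcA and 3 WT libraries for Mpzl2, Pecam1 and Cadm1 (thick black) and the 3 genes with the most similar pattern to each (thin). Mpzl2 separates the groups, whereas in the Pecam1 and Cadm1 panels WT replicate 1 lies between the NICcA libraries and WT replicates 2 and 3.

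Mpzl2 and Mpzl3 are adjacent on mouse chromosome 9, in the RefSeq gene order of GRCm38.p6. The 4 protein-coding genes on one side are Cd3e, Cd3d, Cd3g and Ube4a, and the 4 on the other are Mpzl3, Amica1 (now named Jaml), Scn2b and Scn4b. Of the 8, 7 were tested and 0 passed edgeR, with 1, Scn2b, at an unadjusted p below 0.05, where 14.5% of all tested genes were. The median log2 fold change of the 7 was 0.80, and 6 were positive. In both NICcA libraries 4 of them (Cd3g, Mpzl3, Amica1 and Scn2b) were higher than in any WT library, where 18.3% of tested genes were. Without overlap 0 were lower, and Cd3g and Scn2b were at or below 0.832 CPM in every library. The T cell receptor chain genes next to Mpzl2 were nearly silent, with Cd3e at 0.0449 and 0.0277 CPM in NICcA and at 0.0347, 0.0 and 0.0 CPM in WT. Ube4a, an ubiquitin ligase gene, was at 39.7 and 33.9 CPM in NICcA and at 38.7, 33.9 and 39.8 CPM in WT. Amica1, another junctional adhesion molecule of leukocytes, was at 98.0 and 100.4 CPM in NICcA and at 70.1, 30.8 and 12.6 CPM in WT (log2 fold change 1.39, SE 0.62, edgeR adjusted p = 0.36). Its WT libraries spread widely, and WT replicate 1 was again the one nearest to NICcA. Amica1 had the largest log2 fold change among the 7 tested neighbours.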

How the data were processed

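RNA of macrophage cultures was sequenced in 5 libraries. The authors deposited a raw read count and an RPKM for each of 27457 RefSeq transcript rows, and a second table of RPKM alone, in which the 15 rows of the 9 genes hold the same values. Per the submitters' processing notes, Bowtie 0.12.2 and build mm8 were used. How reads were counted, and with which strand setting, is not given in the sources used here. As the main test, deposited counts were fitted with edgeR 4.0.16 under R 4.3.3 (TMM, filterByExpr, glmQLFit and glmQLFTest, genotype as the only term), with Benjamini-Hochberg adjustment over 18267 rows (13341 genes) at 0.05. CPM are counts per 1000000 of the TMM-scaled library, and an SE is the log2 fold change over the square root of F. In simulated libraries with 13113 genes, edgeR recovered 34% of the 50 genes changed 2-fold and 98% of the 50 changed 8-fold. These shares describe simulated libraries only. In the measured libraries edgeR called 4 genes, among them Mmp9 (log2 fold change 4.41, edgeR adjusted p = 0.0067). It did not call Hes1 (5.18, edgeR adjusted p = 0.13), Itga9 (4.85, edgeR adjusted p = 0.27) or Il1b (4.24, edgeR adjusted p = 0.27). How often large changes are missed in the measured libraries was not tested. Alternatives were other scalings and filters, DESeq2 1.42.0, limma 3.58.1 on RPKM, a replicate term and libraries left out. The 9 genes and all lists were chosen with earlier results of these data known. Beside the 9 genes, the text names the called genes of each list (at most 4) or the 2 with the smallest p, with all marker genes taken as a single list, and exceptions are stated.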

Additional observations from a re-analysis of the deposited data

How the results depend on the processing

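Among the 8 genes other than Mpzl2, 0 were called under any of the 17 alternatives, and 2 of 159 recomputed log2 fold changes of the 9 genes turned sign, both of Mpzl1 (0.09 without NICcA replicate 2 and 0.00 without WT replicate 2; range -0.38 to 0.09 when 1 library was left out). The log2 fold change of Mpzl2 stayed between 1.59 (limma on log2(RPKM + 1)) and 4.59 (without NICcA replicate 3). The number of genes called over the whole table was 527 with DESeq2, 8 with edgeR's setting legacy = FALSE, 11 with no count filter, 2 with limma on filtered RPKM at either pseudocount and 0 to 44 when 1 library was left out (44 without NICcA replicate 3, 0 without NICcA replicate 2 or WT replicate 2). The median log2 fold change of the 9 genes, which includes Mpzl2, was 0.58 with no scaling factors, where that of all genes moved to 0.11. It was 0.57 with limma on log2(RPKM + 0.1), 0.35 with limma on log2(RPKM + 1) with or without a filter, and 0.10 (without NICcA replicate 2) to 0.53 when 1 library was left out. With the replicate number as a block, 0 genes were called and this median was 0.40. For the 8 genes without Mpzl2 the median (0.18 in the main fit) was not recomputed under the alternatives. The shared numbers 2 and 3 are not said to pair libraries. The overlap in CPM was also examined without 1 library, an alternative chosen after seeing the data. Then 6 to 9 of the 9 genes, and 5 to 8 of the 8 other than Mpzl2, did not overlap between the groups. Of all tested genes 43.3% to 65.5% did not. The causes were not tested. In WT, Mpzl2 rests on 24 to 33 reads a library, which limits the precision of its fold change.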

Other observations

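Genes of epithelial-type adhesion had WT libraries in the same order as Pecam1 and Amica1. Cdh1, which encodes E-cadherin, was at 155 and 150.4 CPM in NICcA and at 94.9, 43.9 and 9.59 CPM in WT (log2 fold change 1.63, SE 0.79, edgeR adjusted p = 0.38). Epcam, an epithelial adhesion molecule also found on some dendritic cells, was at 13.2 and 14.6 CPM in NICcA and at 6.52, 3.59 and 0.137 CPM in WT (edgeR adjusted p = 0.41). The junction scaffold gene Tjp1 was at 8.45 and 7.94 CPM in NICcA and at 6.21, 2.07 and 1.08 CPM in WT (edgeR adjusted p = 0.37). In all 3, WT replicate 1 was the WT library nearest to NICcA. The keratin genes Krt8 and Krt18 were at or below 0.0607 CPM and Krt19 at or below 0.628 CPM in every library.

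Markers of other cell types differed in how they lay between the groups. Of 7 dendritic cell markers, 5 were higher in both NICcA libraries than in any WT library, where 18.3% of tested genes were, and 0 passed edgeR. The median log2 fold change of the 7 was 1.10, and 6 were positive. Of the 5, Flt3, Xcr1 and Siglech were at or below 0.762 CPM in every library. Zbtb46 was at 10.7 and 7.61 CPM in NICcA and 5.33, 4.82 and 2.67 CPM in WT. Cd209a was at 16.4 and 18.9 CPM in NICcA and 12.5, 6.86 and 2.02 CPM in WT. Clec9a had a negative log2 fold change (-1.14), at 6.85 and 13.5 CPM in NICcA and 10.8, 24.9 and 31.4 CPM in WT. The summed level of the 7 was 202 and 111 CPM in NICcA and 60.6 to 115 CPM in WT. Without Ccr7, which made up most of the sum in NICcA replicate 2, it was 35.3 and 42.1 CPM in NICcA and 29.3 to 37.4 CPM in WT. Neutrophil markers summed to 107 and 122 CPM in NICcA and 51.6 to 99.6 CPM in WT, with the granule protein gene Ngp at 27.6 and 31.8 CPM in NICcA and 17.1, 12.5 and 20.7 CPM in WT (edgeR adjusted p = 0.28; DESeq2 adjusted p = 0.035). Mast cell and basophil markers summed to 23.0 and 16.2 CPM in NICcA and 2.64 to 10.4 CPM in WT. Nearly all of this was Cpa3, at 22.7 and 15.8 CPM in NICcA and 10.3, 5.4 and 2.31 CPM in WT (edgeR adjusted p = 0.32; DESeq2 adjusted p = 0.049), whereas Mcpt8 and Fcer1a were at or below 0.239 CPM. T and NK cell markers summed to at most 2.76 CPM, B cell markers to at most 0.561 CPM and erythroid markers to at most 0.759 CPM in any library. Stromal markers summed to 0.658 and 0.679 CPM in NICcA and to 17.5, 0.723 and 0.683 CPM in WT. The 8 macrophage markers summed to 11888 and 12444 CPM in NICcA and 13747 to 20199.9 CPM in WT, mostly Lyz2. The sum of the other 7 overlapped, at 2586 and 2033 CPM in NICcA and 2050.3 to 2683 CPM in WT. Over all 8 the median log2 fold change was 0.00, 4 were positive and 0 passed edgeR. An unadjusted edgeR p below 0.05 was found for 4 of the 8, where 14.5% of all tested genes had one. Of these 4, Fcgr1 was higher (log2 fold change 0.91, DESeq2 adjusted p = 0.041). Cd68 (-0.65), Mertk (-0.57) and Lyz2 (-0.55) were lower in both NICcA libraries than in any WT library, where 18.5% of tested genes were. The part of these marker genes' cell types in the levels of the adhesion genes was not tested.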
